A study of Mus musculus with 8 samples.

Results

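To describe the genes that build colonic mucus over the day, 9 goblet cell and mucus genes were taken by symbol from a table of 14247 genes measured by bulk RNA sequencing of the mouse colonic epithelium. The 9 genes were Muc2, Fcgbp, Clca1, Zg16, Tff3, Spink4, Agr2, Spdef and Atoh1; all 9 were found, and all 9 passed the filter of a mean of at least 10 normalised counts that left 13503 genes for testing. Crypts were released by EDTA and scraping from the colons of C57BL/6 mice, labelled wild type in every group, with no treatment named. The mice were 2 to 4 months old and kept under 12 h of light and 12 h of darkness. They were collected at zeitgeber time (ZT) 0, when the lights go on, and at ZT6, ZT12 and ZT18. There were 2 libraries per time point and 8 in all, named replicate 1 and replicate 2 after their labels. ZT0 and ZT6 fall in the resting phase of mice, and ZT12 and ZT18 in their active phase.

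Goblet cells secrete the mucus that keeps bacteria away from the colonic surface. The transcription factor Atoh1, held in check by Notch signalling, commits a crypt progenitor to the secretory lineage, and Spdef then drives its maturation into a goblet cell. The mucin Muc2 is folded in the endoplasmic reticulum with the help of Agr2, packed into granules and released as a gel to which further secreted proteins are added.

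Atoh1 and the main clock activators are basic helix-loop-helix factors, a family that binds E-boxes. The RefSeq promoter table for GRCm38.p6 held 5 of the 9 genes (Muc2, Fcgbp, Agr2, Spdef and Atoh1). The 120 bases before the RefSeq transcription start are shown for 4 of them. At ZT0 and at ZT18 the replicates of Fcgbp were ordered in the opposite direction from those of the other 3, as described further on. Atoh1 was ordered like those 3, and its window is not shown. The gene spans given further on are from GENCODE, and the windows of Agr2 and Spdef overlap the start of those spans. Letters are in lower case, with each E-box of the form CANNTG, which reads the same on both strands as a pattern, in capitals.
Muc2: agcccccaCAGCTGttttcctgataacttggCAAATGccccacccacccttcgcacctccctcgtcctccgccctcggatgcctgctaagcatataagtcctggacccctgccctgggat
Fcgbp: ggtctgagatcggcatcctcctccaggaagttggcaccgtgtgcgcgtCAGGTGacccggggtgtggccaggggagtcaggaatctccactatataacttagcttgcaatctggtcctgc
Agr2: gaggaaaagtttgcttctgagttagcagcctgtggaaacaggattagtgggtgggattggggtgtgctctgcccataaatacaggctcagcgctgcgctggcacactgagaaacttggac
Spdef: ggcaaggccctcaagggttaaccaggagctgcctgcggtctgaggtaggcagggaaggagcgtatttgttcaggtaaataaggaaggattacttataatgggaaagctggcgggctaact
These windows lie at chr7:141690220-141690339 (plus strand) for Muc2, chr7:28071116-28071235 (plus strand) for Fcgbp, chr12:35992805-35992924 (plus strand) for Agr2 and chr17:27728952-27729071 (minus strand) for Spdef. Muc2 had 2 matches, CAGCTG and CAAATG, Fcgbp had 1 match, CAGGTG, and the windows of Agr2, Spdef and Atoh1 had none. For comparison, 40.2% of the 32844 promoter windows of that length in the table held CANNTG. The canonical clock E-box CACGTG, a special case of CANNTG, was in none of the 5 windows and in 3.66% of all windows. These matches describe letters and were not set against any binding data.

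The libraries held between 14722342 and 25159440 reads (median 17507372), and every library had all of the 12 epithelial markers above 0, with a summed level between 262632 and 350120 normalised counts. The normalised count is the number of reads of a gene divided by the size factor of the library. The mitochondrial share was between 6.68% and 22.2%, and ZT18 replicate 1 had the highest. Markers of other cells were low beside the epithelial ones but uneven. The 6 smooth muscle markers in the table summed to between 6.95 and 257 normalised counts in 7 libraries and to 4050 in ZT12 replicate 1, in which the fibroblast markers also had their highest sum (2929). The B and plasma cell sum was highest in ZT0 replicate 2 (7834), and T cell markers summed to between 24.8 and 330. Their part in the values of the goblet cell genes was not tested. No label says whether the libraries of a time point came from separate mice, so p-values measure only the spread between these libraries. The paper's captions for these time points count mice, and more of them than the 2 libraries here. How far the spread is technical was not tested. In bulk RNA, fewer goblet cells and less RNA per goblet cell cannot be told apart.

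The secreted proteins were among the most abundant transcripts of the crypts. The 9 genes took between 1.42% and 2.37% of the normalised counts of a library, lowest in ZT0 replicate 2 and highest in ZT18 replicate 1. By mean normalised count, Muc2 was 7th of all genes, Fcgbp 18th, Clca1 19th and Zg16 28th. Since long transcripts give more reads, levels of different genes were compared per kilobase of annotated exon. On that scale the order was Tff3 with 30201 ± 7310 normalised counts per kilobase (SD, n = 8 libraries), Zg16 with 26057 ± 5733, Muc2 with 19527 ± 4410, Clca1 with 16924 ± 7565, Spink4 with 14609 ± 9139, Agr2 with 10535 ± 1271, Fcgbp with 6361 ± 3291, Spdef with 822 ± 232 and Atoh1 with 545 ± 131. Neighbours in the middle of this order could not be ranked: Muc2 was above Clca1 per kilobase in 5 of 8 libraries, Clca1 above Spink4 in 4 of 8, and Spink4 above Agr2 in 4 of 8. Fcgbp was above Spdef in 8 of 8, with a log2 ratio of 2.86 ± 0.90 (SD, n = 8), so both lineage factors stood well below the secreted proteins. The other neighbouring pairs kept their order in 7 of 8 libraries.

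Muc2, the gel-forming mucin of the colon, lies at chr7:141690340-141754693 on the plus strand of GRCm38. The normalised counts of its replicates 1 and 2 were 85161 and 139324 (ZT0), 156980 and 128459 (ZT6), 148547 and 109863 (ZT12), and 158415 and 186592 (ZT18). The ZT18 libraries were the highest of the 8, and ZT0 replicate 1 was the lowest. The mean was 172503 ± 19924 at ZT18 against 112243 ± 38299 at ZT0 (SD, n = 2 each). The log2 fold change was 0.66 ± 0.43 (SE), with an adjusted p of 0.999 (limma, Benjamini-Hochberg over all genes). The 95% interval, from 0.80-fold to 3.11-fold, includes no difference.

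Fcgbp, a large protein with mucin-like domains that is bound to the Muc2 gel, lies at chr7:28071236-28120862 on the plus strand. It had 78810 and 35003 normalised counts (ZT0), 56258 and 48667 (ZT6), 72226 and 65371 (ZT12), and 142544 and 35303 (ZT18). Its highest and its second lowest value therefore came from the same time point, ZT18. Clca1, a secreted metalloprotease that acts on Muc2 in the mucus, lies at chr3:145003817-145032776 on the minus strand. It had 68598 and 27206 normalised counts (ZT0), 55718 and 46718 (ZT6), 78541 and 69333 (ZT12), and 121615 and 43655 (ZT18). Clca1 ordered the ZT0 and ZT18 libraries as Fcgbp did, with replicate 1 above replicate 2, and at ZT6 and ZT12 the replicates of both genes were close.

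Spink4, a small protein of the Kazal family of serine protease inhibitors, lies at chr4:40920052-40931395 on the plus strand. It had 8865 and 5005 normalised counts (ZT0), 5072 and 6301 (ZT6), 3574 and 7976 (ZT12), and 16420 and 2534 (ZT18). Tff3, a trefoil peptide that aids repair of the epithelium, lies at chr17:31125306-31129646 on the minus strand. It had 15867 and 11014 normalised counts (ZT0), 17285 and 16344 (ZT6), 11401 and 16656 (ZT12), and 20346 and 10197 (ZT18). Both genes had their highest library and their lowest library at ZT18, and both were higher in replicate 2 than in replicate 1 at ZT12, where Fcgbp and Clca1 were not.

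Zg16, a lectin of the mucus that binds the wall of Gram-positive bacteria, lies at chr7:127050156-127087328 on the minus strand, where 2 annotated genes on the opposite strand overlap it. The use of strand in counting is not stated, so reads of these genes cannot be kept apart. It had 27654 and 25387 normalised counts (ZT0), 42225 and 38934 (ZT6), 39364 and 28089 (ZT12), and 36383 and 23997 (ZT18). Zg16 had the closest replicates of the secreted proteins at ZT0, and replicate 1 was above replicate 2 at each time point. Its mean was 40579 ± 2327 at ZT6 against 26521 ± 1602 at ZT0 (SD, n = 2 each). This log2 fold change of 0.61 ± 0.29 (SE) was not called (adjusted p of 1.000 by limma).

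Agr2, a protein disulphide isomerase of the endoplasmic reticulum needed to fold Muc2, lies at chr12:35992907-36004087 on the plus strand. It had 12839 and 14853 normalised counts (ZT0), 14110 and 12063 (ZT6), 14661 and 12390 (ZT12), and 11570 and 16315 (ZT18). It varied least of the 9 genes, with a coefficient of variation of 12.1% over the 8 libraries against 62.6% for Spink4, and its time point means spanned only 0.08 on the log2 scale.

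Spdef, an ETS factor of goblet cell maturation, lies at chr17:27714352-27728955 on the minus strand. It had 1570 and 2477 normalised counts (ZT0), 1855 and 1465 (ZT6), 1533 and 1365 (ZT12), and 2039 and 2859 (ZT18). Both ZT18 libraries were above both libraries of ZT6 and of ZT12. Atoh1, the basic helix-loop-helix factor of the secretory lineage, lies at chr6:64729125-64731245 on the plus strand. It had 998 and 1088 normalised counts (ZT0), 1046 and 1049 (ZT6), 1415 and 862 (ZT12), and 1056 and 1728 (ZT18). Replicates of Atoh1 were 1.00-fold apart at ZT6 and 1.64-fold apart at both ZT12 and ZT18.

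**Figure D1:**
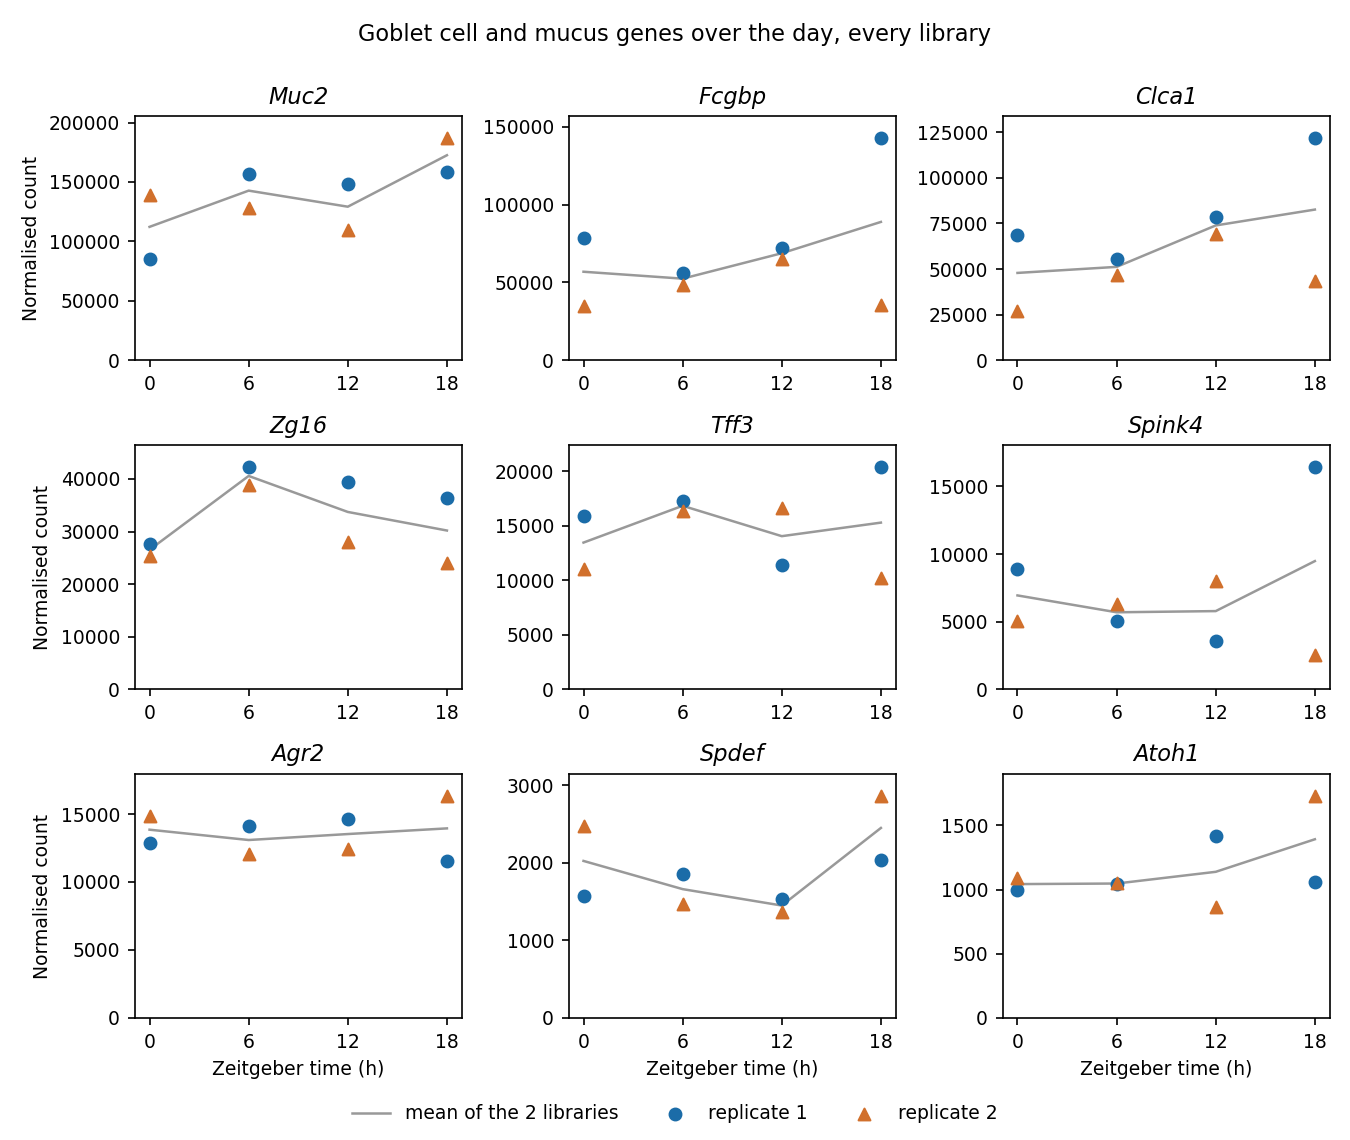
Normalised counts (vertical axes, from 0) of the 9 goblet cell and mucus genes against zeitgeber time in hours; circles are replicate 1, triangles replicate 2, and the grey line joins the means of the 2 libraries. At ZT18 the replicates of Spink4 were 16420 and 2534, while those of Agr2 stayed between 11570 and 16315.

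To ask whether any of these genes changed over the day, the 4 time points were compared in a single limma fit on log2(normalised count + 1), a scale that understates the change of low genes. None of the 9 genes was called at an adjusted p under 0.05 in the F-test over the 4 time points, where 0.0889% of all genes were called. None reached an unadjusted p under 0.05 either, where 7.03% of all genes did; Spdef came closest (adjusted p = 0.705 by limma). With edgeR and DESeq2 on reads recovered from the table, the number of the 9 genes called was also 0, with 0 and 1 of them at an unadjusted p under 0.05. Here and below, shares of all genes at an unadjusted p are those by limma, and none are given for edgeR or DESeq2. The same libraries did register part of the clock: Per2, a core clock repressor, was called in this test (adjusted p = 0.0148 by limma). The clock genes Nr1d1 and Dbp were called too (adjusted p of 0.0142 and 0.000732 by limma). Arntl, which encodes the clock activator Bmal1, was not (adjusted p = 0.252 by limma).

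Between active and resting phase, 0 of the 9 genes were called at an adjusted p under 0.05 (0.0592% of all genes were), and 0 had an unadjusted p under 0.05 (7.61% of all genes did). By edgeR and by DESeq2, 0 were called as well, with 0 at an unadjusted p under 0.05 in each. The 4 active-phase libraries overlapped the 4 resting-phase libraries for each of the 9 genes, against 4.32% of all genes without overlap. Clca1 had the largest difference, with 78286 ± 32439 normalised counts in the active phase and 49560 ± 17399 in the resting phase (SD, n = 4 each), which is a log2 difference of 0.64 ± 0.39 (SE, adjusted p = 0.728 by limma). Fcgbp followed with 0.41 ± 0.43, a difference that rested on ZT18 replicate 1: without that library it was -0.09. Muc2 had 0.25 ± 0.31 and Atoh1 0.23 ± 0.20, and the remaining 5 lay between -0.08 and 0.05. The median log2 fold change was 0.05 over the 9 genes and 0.00 over all genes tested.

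The intervals set what these libraries could exclude. For Agr2 the active to resting ratio lay between 0.784 and 1.31 (95% interval from limma), for Zg16 between 0.693 and 1.32, and for Spdef between 0.780 and 1.38. For Spink4 it lay between 0.424 and 2.16, so a change of that size in either direction was not detectable.

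**Figure D2:**
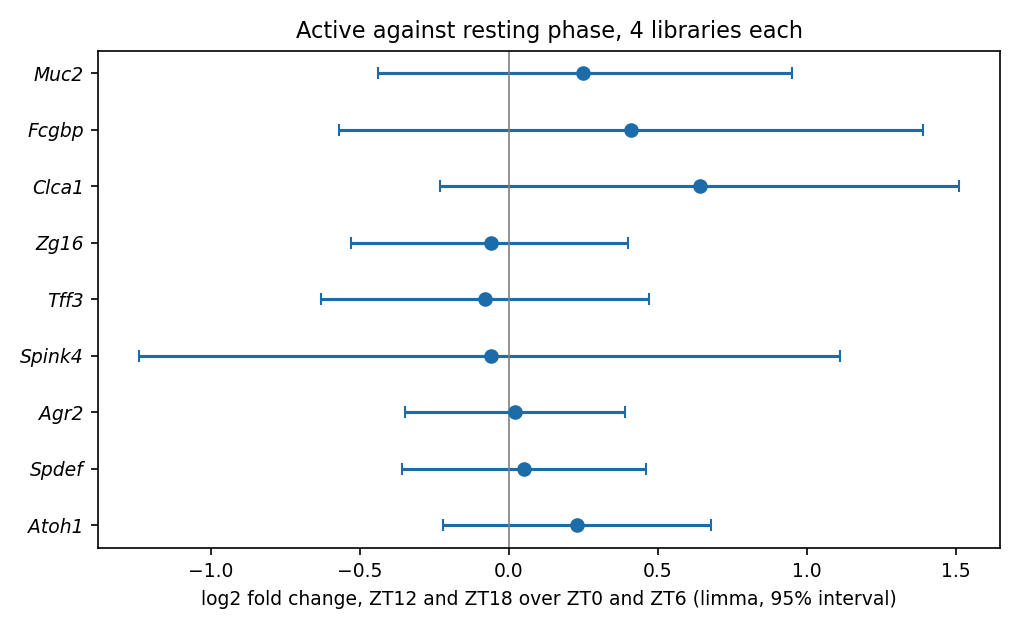
Log2 fold change of each gene between ZT12 and ZT18 (4 libraries) and ZT0 and ZT6 (4 libraries), with points for the limma estimate and bars for its 95% interval. All 9 intervals include 0; the narrowest is that of Agr2, from -0.35 to 0.39, and the widest that of Spink4, from -1.24 to 1.11.

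Between single time points, 0 of the 9 genes were called in any of the 6 contrasts by limma, edgeR or DESeq2. For ZT6 against ZT0, 0.0444% of all genes were called, and 4.13% had an unadjusted p under 0.05 against 0 of the 9. For ZT12 against ZT0, these shares were 0.0667% and 9.96%, again against 0 of the 9 by either rule, and for ZT18 against ZT0 they were 0% and 5.02%, against 0 of the 9. For ZT12 against ZT6, 0% were called and 6.78% passed unadjusted, and for ZT18 against ZT6, 0.0444% and 6.71%, with 0 of the 9 in each. For ZT18 against ZT12, 0.0296% were called and 9.03% passed unadjusted, and here 1 of the 9 passed unadjusted, Spdef. Unadjusted, edgeR had 1 of the 9 for ZT6 against ZT0 and for ZT18 against ZT12. DESeq2 had 1 in each of those contrasts and 1 each for ZT18 against ZT0 and against ZT6.

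Spdef had 2449 ± 580 normalised counts at ZT18 and 1449 ± 119 at ZT12 (SD, n = 2 each). Its log2 fold change of 0.74 ± 0.26 (SE), with a 95% interval from 0.16 to 1.32, had an unadjusted p of 0.0181 and an adjusted p of 0.520 by limma. Against ZT6 the difference of Spdef was 0.55 ± 0.26 and against ZT0 0.29 ± 0.26. Atoh1, which acts before Spdef, had its highest mean at ZT18 as well, with 1392 ± 475 against 1043 ± 63.2 normalised counts at ZT0 (SD, n = 2 each). That difference was 0.37 ± 0.28 on the log2 scale (SE; adjusted p of 0.999 by limma).

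With 2 libraries per time point, libraries that do not overlap are common. Among these genes they were near or below the share of all genes in each contrast, and whether they differ was not tested. For ZT18 against ZT6, 4 of the 9 did not overlap, with Muc2, Spdef and Atoh1 higher and Zg16 lower at ZT18, against 38.0% of all genes. For ZT6 against ZT0, 2 of the 9 did not overlap (Zg16 and Tff3, higher at ZT6), against 37.6%. For ZT12 against ZT0, 3 did not (Clca1 and Zg16 higher, Spdef lower at ZT12), against 41.1%, and for ZT18 against ZT0, 1 did not (Muc2, higher at ZT18), against 27.5%. For ZT12 against ZT6, 2 did not (Fcgbp and Clca1, higher at ZT12), against 45.7%, and for ZT18 against ZT12, 2 did not (Muc2 and Spdef, higher at ZT18), against 36.4%. These contrasts share libraries, so that the same 2 ZT18 libraries of Muc2 stand in 3 of them.

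To look for a rhythm, a cosine with a period of 24 h was fitted to each gene. None of the 9 was called (0.118% of all genes were), and none had an unadjusted p under 0.05 (9.15% of all genes did). By edgeR and DESeq2 none was called, with 0 and 1 of the 9 at an unadjusted p under 0.05. Spdef had an amplitude, the distance from mean to peak on the log2 scale, of 0.35 with a fitted peak at 20.6 h (adjusted p = 0.567 by limma). Clca1 had the largest amplitude, 0.46 with a fitted peak at 14.2 h, and Agr2 the smallest, 0.04. The median amplitude was 0.19 over the 9 genes and 0.23 over all genes tested. In an exact two-sided rank test of rhythm in the manner of JTK, 0 of the 9 were called and 0 had an unadjusted p under 0.05; over all genes, 0% were called and 2.07% passed unadjusted. The smallest p of the 9 in that test was 0.229, for Spdef and Zg16, and the smallest it can give is 0.0190. A call after adjustment would need a large share of all genes at that value, and the smallest adjusted p of any gene was 0.878. The 0 calls of the rank test therefore say nothing about these 9 genes.

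The largest differences among these genes lay between the 2 libraries of a time point. At ZT18, replicate 1 exceeded replicate 2 by 6.48-fold for Spink4, 4.04-fold for Fcgbp, 2.79-fold for Clca1 and 2.00-fold for Tff3. At the same time point replicate 2 exceeded replicate 1 by 1.64-fold for Atoh1, 1.41-fold for Agr2, 1.40-fold for Spdef and 1.18-fold for Muc2. The secreted proteins other than Muc2 were thus higher in 1 of these ZT18 libraries, and the mucin, its folding enzyme and the lineage factors in the other.

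The ZT0 libraries were split in the same way. Replicate 1 exceeded replicate 2 by 2.52-fold for Clca1, 2.25-fold for Fcgbp, 1.77-fold for Spink4 and 1.44-fold for Tff3. Replicate 2 exceeded replicate 1 by 1.64-fold for Muc2, 1.58-fold for Spdef, 1.16-fold for Agr2 and 1.09-fold for Atoh1. Zg16 went with the secreted proteins at both time points, by 1.09-fold at ZT0 and 1.52-fold at ZT18. ZT0 replicate 1 and ZT18 replicate 1 also stood apart in genes of other epithelial cells. The 10 enteroendocrine markers summed to 2910 and 1934 normalised counts in them, with 1 and 3 markers at 0, against 4302 to 8451 in the other 6 libraries with none at 0. Car1, a carbonic anhydrase of colonocytes, had 25770 and 29320 normalised counts in them, against 101729 to 156024 in the others. The 13 colonocyte markers did not follow Car1 as a set. Their median log2 deviation was -0.37 in ZT0 replicate 1 and 0.27 in ZT18 replicate 1. Car4 and Aqp8 had their highest values in ZT0 replicate 1 (37957 and 33885), and Krt20 in ZT18 replicate 1 (36740). ZT0 replicate 1 and ZT18 replicate 1 also had the most genes of the table at 0, 462 and 769 against 29 to 256. The part of these differences in the values of the goblet cell genes was not tested.

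At ZT6 the 9 genes differed little between replicates, by at most 0.34 on the log2 scale. At ZT12 the pattern was another one. There Spink4 was 2.23-fold and Tff3 1.46-fold higher in replicate 2, and the other 7 genes were higher in replicate 1, Atoh1 by 1.64-fold and Muc2 by 1.35-fold.

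Set against the 3558 genes with a mean of at least 1000 normalised counts, these differences were large. The median absolute log2 difference between replicates at ZT18 was 0.71 over the 9 genes and 0.28 over those 3558, and at ZT0 it was 0.66 and 0.21. At ZT6 the medians were 0.23 and 0.10, and at ZT12 0.44 and 0.26. The SD within time points on the log2 scale was 1.08 for Spink4, 0.83 for Fcgbp and 0.71 for Clca1, above that of 99.4%, 98.9% and 98.4% of the 3558 genes. It was 0.44 for Tff3, 0.36 for Atoh1, 0.32 for both Muc2 and Spdef, 0.28 for Zg16 and 0.22 for Agr2, against a median of 0.20. Agr2 was thus near the middle of well expressed genes and Spink4 near the top.

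**Figure D3:**
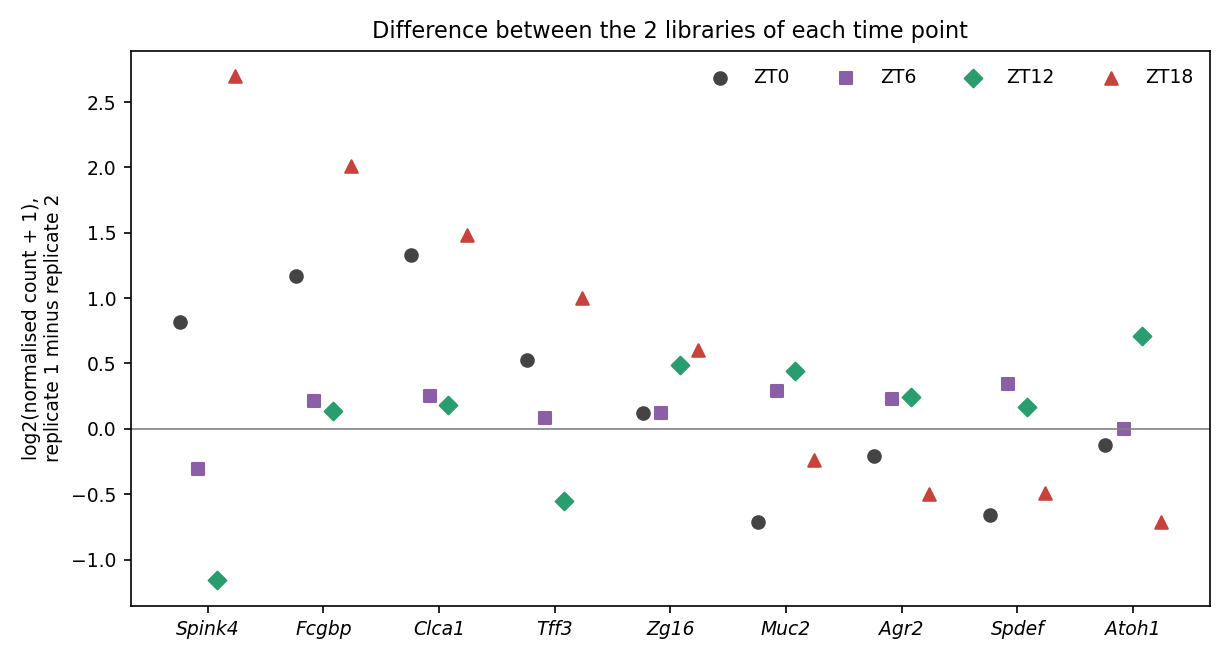
Replicate 1 minus replicate 2 in log2(normalised count + 1) for each of the 9 genes, with a marker for each time point. Spink4, Fcgbp, Clca1 and Tff3 lie above 0 at ZT0 and ZT18, up to 2.70 for Spink4 at ZT18, where Muc2, Agr2, Spdef and Atoh1 lie below 0.

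The ratio of Clca1 to Muc2 normalised counts was 0.806 and 0.195 (ZT0), 0.355 and 0.364 (ZT6), 0.529 and 0.631 (ZT12), and 0.768 and 0.234 (ZT18), highest in replicate 1 of ZT0 and of ZT18. The ratio of Clca1 to Fcgbp stayed between 0.777 and 1.24 in all 8 libraries. The sum of the 6 secreted members was between 242940 and 495722 normalised counts.

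To see which genes went together, Pearson's r on log2(normalised count + 1) and Spearman's rho were computed for the 36 pairs over the 8 libraries, each with an exact two-sided permutation p. By r, 3 of 36 pairs were called after Benjamini-Hochberg adjustment over the 36 and 10 had an unadjusted p under 0.05; by rho, none was called. Fcgbp and Clca1 had r = 0.95 (exact permutation p = 0.000397, adjusted p = 0.0143) and rho = 0.93 (exact permutation p = 0.00223, adjusted p = 0.0804). Without ZT0 replicate 2 and ZT18 replicate 1, the libraries farthest from the median of Fcgbp, r was 0.92, and within time points it was 0.98, with the replicates ordered alike at 4 of 4 time points.

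Agr2 ran against the small secreted proteins. Spink4 and Agr2 had r = -0.90 (exact permutation p = 0.00216, adjusted p = 0.0388) and rho = -0.88 (exact permutation p = 0.00724, adjusted p = 0.130). Tff3 and Agr2 had r = -0.89 (exact permutation p = 0.00377, adjusted p = 0.0452) and rho = -0.83 (exact permutation p = 0.0154, adjusted p = 0.184). Without the 2 farthest libraries these were -0.78 and -0.75, and within time points -0.96 and -0.91. Scaled to the epithelial markers instead, Spink4 with Agr2 and Tff3 with Agr2 were no longer called (r = -0.83 and -0.80, adjusted p of 0.0921 and 0.0967 in exact permutation tests), and Fcgbp with Clca1 was (r = 0.94, adjusted p = 0.0268), by rho as well (rho = 0.95, adjusted p = 0.0411). In all, this scaling called 3 pairs by r and 1 by rho; the other 2 by r were Tff3 with Spdef (r = -0.95, against -0.51 before) and Agr2 with Atoh1 (r = 0.86, against 0.76), each with an adjusted p of 0.0333 in exact permutation tests.

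These calls also depended on single libraries. Without ZT12 replicate 2 or without ZT18 replicate 2, 0 of the 36 pairs were called, with r of Fcgbp and Clca1 at 0.95 and 0.96 over 7 libraries and adjusted p of 0.050 and 0.0857 in exact permutation tests. Without either of the ZT0 libraries 1 pair was called, Fcgbp with Clca1. Without ZT18 replicate 1, Fcgbp and Clca1 had r = 0.91 (adjusted p = 0.0429, exact permutation test).

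Other pairs followed the same lines without a call. Tff3 and Spink4 had r = 0.86 (exact permutation p = 0.00560, adjusted p = 0.0505) and Spink4 and Atoh1 r = -0.75 (exact permutation p = 0.0327, adjusted p = 0.147). Muc2 was nearer to the lineage factors, with r = 0.67 to Atoh1 and 0.66 to Spdef (exact permutation p of 0.0761 and 0.0743, adjusted p of 0.228 for each), than to Fcgbp, with r = -0.22, or Clca1, with r = -0.10 (exact permutation p of 0.592 and 0.806, adjusted p of 0.688 and 0.806). Whether these correlations differ from each other was not tested. The 8 points of each correlation share their library, depth and size factor.

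**Figure D4:**
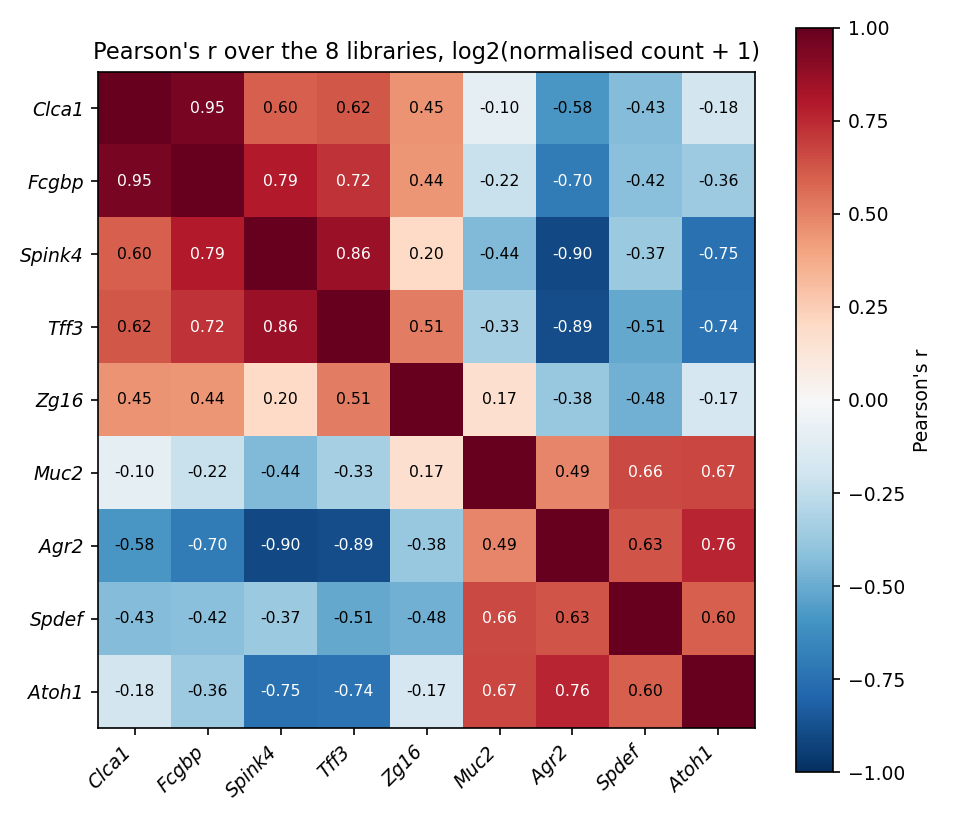
Pearson's r over the 8 libraries for each of the 36 pairs of the 9 genes, on log2(normalised count + 1), from -1 (blue) to 1 (red). Clca1, Fcgbp, Spink4 and Tff3 form a block with r between 0.60 and 0.95, and Muc2, Agr2, Spdef and Atoh1 a block with r between 0.49 and 0.76. Within these blocks only Fcgbp with Clca1 was called. Some of these pairs depended on few libraries. Without the 2 libraries farthest from the median of 1 gene of the pair, r ran from 0.13 (Clca1 with Tff3) to 0.92 (Fcgbp with Clca1) in the first. In the second it was 0.16 for Spdef with Atoh1, and between 0.51 (Muc2 with Agr2) and 0.72 (Agr2 with Spdef) for the other pairs.

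Hox genes of group 13 are expressed toward the distal end of the gut and Hox genes of lower groups further forward. Here 6 of them are given that were chosen after their values were seen, so that their match with these libraries was set by the choice. Hoxb13 had 6405 and 3235 normalised counts (ZT0), 3870 and 4086 (ZT6), 3538 and 5682 (ZT12), and 6927 and 2508 (ZT18). Hoxd13 had 1136 and 457 (ZT0), 833 and 606 (ZT6), 762 and 1980 (ZT12), and 1194 and 295 (ZT18). Like Spink4 and Tff3, both were higher in replicate 1 at ZT0 and ZT18 and higher in replicate 2 at ZT12. Hoxa13 had 902 and 622 normalised counts (ZT0), 1087 and 819 (ZT6), 887 and 1393 (ZT12), and 931 and 521 (ZT18), and was ordered in the same way. Fcgbp, Clca1 and Zg16 did not follow these 3 at ZT12, where they were higher in replicate 1.

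Hoxb6 had 22.9 and 1004 normalised counts (ZT0), 425 and 569 (ZT6), 634 and 225 (ZT12), and 12.8 and 869 (ZT18). Hoxb8 had 0 reads in replicate 1 of ZT0 and of ZT18, which allows up to 2.98 and 2.56 normalised counts (3 reads, counting error only), and 398 and 332 in their replicates 2; at ZT6 it had 166 and 214, and at ZT12 210 and 72.6. Hoxb7 had 1.99 and 187 (ZT0), 108 and 97.9 (ZT6), 124 and 58.8 (ZT12), and 0 reads and 223 (ZT18). These 3 were low in the libraries in which Spink4 and Fcgbp were highest, ZT18 replicate 1 and ZT0 replicate 1. The part of position along the colon in the values of the goblet cell genes was not tested.

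**Figure D5:**
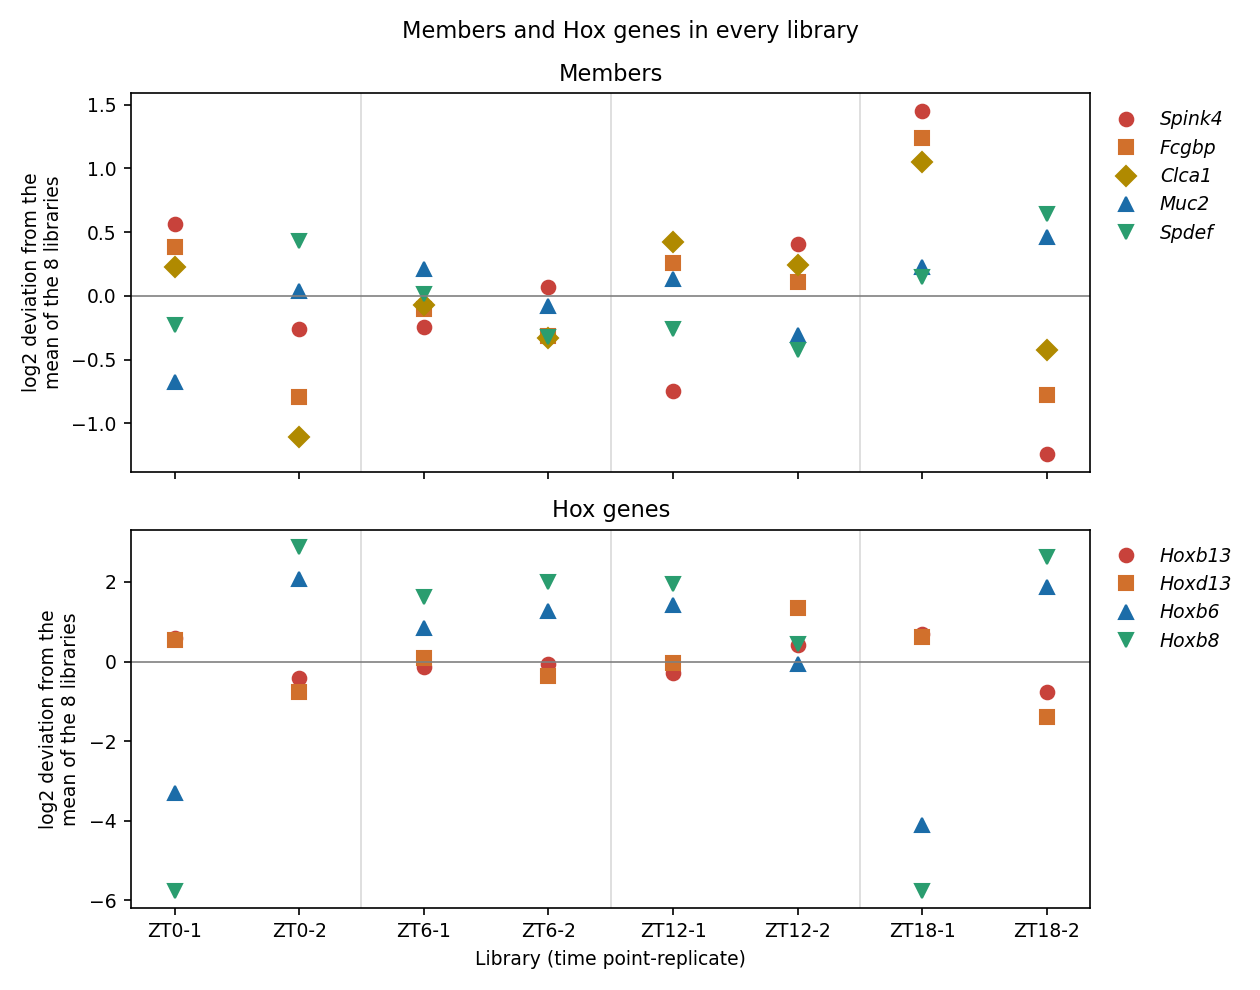
Deviation of log2(normalised count + 1) from the mean of the 8 libraries, for 5 of the goblet cell and mucus genes (upper panel) and 4 Hox genes (lower panel), with a column for each library named by time point and replicate. In ZT0-1 and ZT18-1, Spink4, Fcgbp, Clca1, Hoxb13 and Hoxd13 lie above 0 and Hoxb6 and Hoxb8 far below it, with 0 reads of Hoxb8 in both.

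The other genes of mucus and the secretory lineage were read from 5 lists with 111 genes, of which 99 were tested. None of the 99 was called by limma in the F-test, the cosine or any of the 7 contrasts, nor by edgeR. In the F-test, DESeq2 called 2 of the 99 (Clca4a and St3gal1) and 217 of all genes, and 10 of the 99 passed unadjusted. It called 1 for ZT18 against ZT0 (St3gal1), 1 for ZT18 against ZT6 (Clca4a) and 3 for ZT18 against ZT12 (Clca4a, Lypd8 and St3gal1). Neither its counts over all genes in those contrasts nor its unadjusted share of all genes is given. The calls in those contrasts and the 10 unadjusted passes therefore cannot be set against all genes. At an unadjusted p under 0.05 by limma, 4 of 99 passed in the F-test, against 7.03% of all genes. Between active and resting phase 4 of 99 passed (Fer1l6, Galnt3, Gcnt3 and Maml1), against 7.61% of all genes. Compared with ZT0, 6 of 99 passed at ZT6 (4.13% of all genes), 9 at ZT12 (9.96%) and 7 at ZT18 (5.02%). Whether these shares differ from those of all genes was not tested.

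The list of other secreted proteins held Guca2a, which also stands in the list of colonocyte markers, and Lypd8 and Clca4a, which enterocytes make too. Among its 13 tested genes, 10 had a higher and 3 a lower mean log2 value in the active phase, with a median log2 fold change of 0.26, against 0.00 over all genes, and none passed unadjusted. The largest differences were those of Retnlb, an antibacterial resistin-like protein (1.63 ± 1.15, SE), and Ang4, an antimicrobial angiogenin (1.19 ± 0.96), and the lowest those of the mucin Muc6 (-1.05 ± 0.70) and the kallikrein Klk1 (-0.25 ± 0.19). Muc6 was near the detection limit, with 1.87 normalised counts in ZT12 replicate 1 and at most 39.4 in any library. Retnlb had 2991 and 1082 normalised counts (ZT0), 1111 and 1133 (ZT6), 897 and 35885 (ZT12), and 14558 and 795 (ZT18). Ang4 had 3640 and 834 (ZT0), 1275 and 1006 (ZT6), 2286 and 5592 (ZT12), and 17406 and 479 (ZT18). For both, the libraries highest at ZT0, ZT12 and ZT18 were those in which Spink4 was the higher of the pair.

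Of the 6 membrane mucins tested, which stay anchored to the cell surface, 4 were higher and 2 lower in the active phase (median log2 fold change 0.08). Muc1 had 0.33 ± 0.29, Muc3a 0.16 ± 0.28, Muc13 -0.04 ± 0.20 and Muc20, near the detection limit, -0.08 ± 1.04 (SE). The 32 tested enzymes and transporters of mucin O-glycosylation had a median of 0.12, with 22 higher and 10 lower in the active phase, and 2 passed unadjusted. Gcnt3, which branches the sugar chains of mucins, had 5536 ± 1612 normalised counts in the active and 3718 ± 1403 in the resting phase (SD, n = 4 each), which is a log2 difference of 0.62 ± 0.23 (SE, adjusted p = 0.646 by limma). Gcnt4 had 1.09 ± 0.97 and the sialyltransferases St3gal4 -1.47 ± 1.09 and St6galnac2 -0.30 ± 0.14. The value of St3gal4 came from 1 library, ZT12 replicate 2, with 92.2 normalised counts against 3871 to 8279 in the other 7.

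The 26 tested genes of granules and secretory stress had a median of 0.07 between active and resting phase, with 18 higher and 8 lower and 1 unadjusted pass. Fer1l6, a ferlin, had 0.59 ± 0.23 (SE, adjusted p = 0.646 by limma) and Capn9, a calpain of the digestive tract, 0.57 ± 0.29. The lowest were the transglutaminase Tgm3 (-0.36 ± 0.35) and Smim6 (-0.26 ± 0.23). Of 22 genes of the secretory lineage and Notch pathway, 14 were higher and 8 lower (median 0.09). Nrarp and Dtx1, both regulators of Notch signalling, had 0.70 ± 0.47 and 1.67 ± 1.27, the Notch ligand Jag2 -0.53 ± 0.34 and the intestinal factor Cdx2 -0.34 ± 0.23. Dtx1 had 14.4 ± 5.11 normalised counts in the active and 16.7 ± 31.2 in the resting phase (SD, n = 4 each), so that its means and its log2 fold change differ in sign, with ZT0 replicate 1 at 0.

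Finally, the genes most like the mean z-score of the 9 over the 8 libraries, and those most like Muc2, were listed by Pearson's r, as a description. With the mean z-score of the 9 these were Capn9 (r = 0.961), the sulphotransferase Chst4 (0.956), Mocos (0.929), Pemt (0.909) and Tspan13 (0.892). With Muc2 they were 1810055G02Rik (r = 0.975), Ddhd2 (0.957), Drd3 (0.941), Prom1 (0.935) and Ido1 (0.930). The mean z-score was highest in ZT18 replicate 1 (0.73) and lowest in ZT0 replicate 2 (-0.39). It averages genes that ran against each other, as r was negative in 19 of the 36 pairs. Drd3 had between 0 and 37.8 normalised counts, so its place rests on few reads.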

How the data were processed

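Crypt RNA of 8 libraries (total RNA; 4 time points, 2 libraries each) was sequenced as paired-end reads, aligned by the authors with STAR to GRCm38 (mm10) and normalised with DESeq2; the counting tool, annotation and strand use are not given in the sources used here. The library kit named in the labels differs from that in the methods. The authors deposited a signal, the read count divided by 1 size factor per library. Each value came out as a whole number of reads, within 0.001 of a read for 100% of values, so reads were recovered. Columns that the authors deposited for their own comparison (log2 fold change, its standard error and a test score, p-value and adjusted p-value) were not used.

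Tests used limma 3.58.1 in R 4.3.3 (lmFit, eBayes with trend) on log2(normalised count + 1) for the 13503 genes with a mean of at least 10, with all 8 libraries in 1 fit, adjusted by Benjamini-Hochberg over all genes and called under 0.05; edgeR 4.0.16 and DESeq2 1.42.0 on recovered reads were alternatives. Exon lengths and positions came from GENCODE M21, to which 14239 of 14247 identifiers matched. The code was tested on simulated data. A symbol with several rows counted once in a list, by its row with the highest mean. The members and lists were chosen with earlier results of these data known. Genes beyond the members were mostly named by rule. For each list of mucus and lineage genes, these were the 2 highest and 2 lowest between active and resting phase. Any gene called and the 5 most like the mean z-score of the members or like Muc2 were named too. The Hox genes and Reg4 were added after the values were seen, as was leaving out libraries for the correlations. Kit, Itln1 and the colonocyte and clock genes were named outside these rules.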

Additional observations from a re-analysis of the deposited data

How the results depend on the processing

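Under 21 other settings (pseudocounts of 0.1 and 5, other filters and scalings, eBayes without the trend, edgeR, DESeq2, and each library left out), 0 of the 9 genes were called in any test; the smallest adjusted p of any of them was 0.155, for ZT18 against ZT12 without ZT18 replicate 2. Over all genes, the F-test called from 2 genes (eBayes without the trend) to 217 (DESeq2), against 12, and the cosine from 1 to 184, against 16, by the same tools; with a library left out these were 1 to 16 and 6 to 18. Scaling to the epithelial markers shifted libraries by -0.23 to 0.27 on the log2 scale. Of 1314 log2 fold changes recomputed, 99 changed sign, 70 of them with a library left out. In the main fit, none of these 99 exceeded 0.51 in size. Their recomputed values could be larger, as those of Spink4 below were.

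Between active and resting phase, Agr2 had -0.02 when scaled to reads outside the mitochondrial genome, and Spink4 had 0.23 by edgeR and 0.24 by DESeq2, against 0.02 and -0.06; the cause was not tested. Leaving out each library in turn, the values ran from -0.09 to 0.92 for Fcgbp (lowest without ZT18 replicate 1), -0.21 to 0.09 for Zg16, -0.33 to 0.17 for Tff3, -0.74 to 0.61 for Spink4, -0.10 to 0.14 for Agr2 and -0.11 to 0.22 for Spdef. Muc2, Clca1 and Atoh1 stayed above 0.

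Replicate numbers did not pair the libraries: deviations of same-numbered libraries correlated at -0.29 to 0.22. With the replicate block, 0 of the 9 genes were called in any test, and the block left 8 genes called in the F-test in place of 12. Leaving out a library gave 0 to 4 called pairs of the 36, against 3.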

Other observations

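Reg4, a secreted lectin of crypt secretory cells that is none of the 9 genes, was chosen after its values were seen. It had 8810 and 3904 normalised counts (ZT0), 4257 and 4698 (ZT6), 2865 and 10214 (ZT12), and 21655 and 2402 (ZT18), and its highest and lowest libraries were those of Spink4. Kit, a receptor that stands with Reg4 in the list of deep crypt secretory cells, ordered the replicates the other way at each time point, by little at ZT0 and ZT6. It had 694 and 735 normalised counts (ZT0), 848 and 756 (ZT6), 1121 and 676 (ZT12), and 378 and 1373 (ZT18), lowest in the library in which Reg4 was highest. Itln1, an intelectin that binds bacterial sugars, had 250 and 61.6 (ZT0), 107 and 69.6 (ZT6), 81.5 and 235 (ZT12), and 831 and 33.0 (ZT18). At each of ZT0, ZT12 and ZT18, Reg4, Itln1, Retnlb, Ang4, Spink4 and Tff3 were all higher in the same library. That agreement is set in part by the choice of these genes. Klk1, from the list of other secreted proteins, went the other way at ZT12 (20773 and 12876) and at ZT18 (18372 and 21968).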
